A study of Mus musculus with 16 samples.

Results

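The coat protein complex II (COPII) coat was described in livers of A/J and C57BL/6J mice through every probe on the array whose gene symbol is a COPII subunit. The list held 10 genes, namely Sec23a, Sec23b, Sec24a, Sec24b, Sec24c, Sec24d, Sec31a, Sec13, Sar1a and Sar1b. Of these, 9 had a probe, giving 9 of the 16590 named genes and 11 of the 25697 probes on the array, and Sec31a, which had none under that symbol, was not analysed here. The genes were chosen with strain differences of these arrays already known, so that the strain values of the coat genes are given as a description and carry no P value.

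Liver RNA of male mice fed a high-fat, high-caloric (HFHC) diet was hybridised to Illumina Mouse Ref 8 arrays, 8 samples of A/J mice (AJ in the labels) and 8 of C57BL/6J mice (C57BL6J in the labels). Both inbred strains received the same diet, no chow-fed animals enter the comparison, and no allele other than those of the strains distinguishes the groups. The sample titles read 8 weeks, without saying if this is the age or the time on the diet. The methods give mice of 8 to 10 wk for all experiments and feeding for 8 wk, without saying at which point of the feeding that age applies. The methods describe samples each pooled from 2 mice, without saying if the 8 labelled samples per strain are 8 such pools, and P values therefore cover only the spread between these samples, which may be technical. The comparison belongs to a study of the hepatic expression of Xbp1s, the spliced transcript of a transcription factor of the unfolded protein response, in these 2 strains.

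COPII forms the vesicles that carry newly made proteins out of the endoplasmic reticulum (ER) toward the Golgi. The small GTPase SAR1 binds GTP, inserts into the ER membrane and recruits the inner coat, a dimer of SEC23, which stimulates GTP hydrolysis by SAR1, and SEC24, which binds the export signals of cargo proteins. SEC13 and SEC31 then join as the outer cage that bends the membrane. In the liver the route serves the bulk export of plasma proteins and of the particles that become very low density lipoproteins, and XBP1 is known for raising the transcription of many genes of the secretory pathway.

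The probes of the paralogues are shown because the comparison assumes that they tell the paralogues apart. Each probe is 50 bases long, and its first 30 bases are given 5′ to 3′, decoded from the identifiers deposited with the arrays, with no part capitalised.
Sec24d: gtccattactggctgtccagcttctaattt
Sec24a: aatcgattgggtgggacaggagagacccgg
Sec24b: agatgccgaagggcagcggcactgtggtac
Sec24c: tattaacaccttggggaagtagcagcctcc
Sec23b probe 1: ctcctggacagcagtagcattctagctgac
Sec23b probe 2: ttcctccacatgaaattatatgtcataagt
Sec23a: gaggaagggccagacgtgctaagatggttg
Sar1b probe 1: cggcccacacacttccagccctcagagatc
Sar1b probe 2: tatggagaaggcttccgctggatggcgcag
Sar1a: tcggtagcaacctagaagactggactctgc
Over their full length, no coat probe shared a run of more than 9 bases with a probe of another coat gene. None shared a run of 20 bases with any other probe of the array. Probes were compared only with other probes and not with transcripts, so whether each reads 1 paralogue alone was not tested. The partner probes of Sec23b, and those of Sar1b, shared at most 5 bases and so read separate stretches.

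All values are log2 signals that the authors had normalized so that every array has nearly the same distribution, with a median of 8.01 and a range of 7.61 to 14.97. A call needed an adjusted P of at most 0.05 and a fold change of at least 1.5, over the probes of highest mean, as many as the methods kept after their detection filter. Of the coat probes 10 passed this filter on dim probes. The probe left out was that of Sec24a, with a mean of 7.85 against a lowest kept mean of 8.00, and the dimmest coat probe that passed was Sec23b probe 2, with a mean of 8.05. Fitted differences are A/J minus C57BL/6J. In whole liver, fewer cells of a type and less RNA per cell cannot be told apart.

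Samples differed in ways that strain does not describe. The mean of 14 hepatocyte markers was 12.14 to 12.49 in A/J and 12.13 to 12.59 in C57BL/6J, which bears out the labelled tissue. In both strains it was lower in samples 1 to 4 than in samples 5 to 8, without overlap, and the sources used here do not say what divides these samples. The mean of 14 exocrine pancreas markers was 8.20 to 10.72 in A/J and 8.03 to 12.45 in C57BL/6J, and 3 samples, A/J 4, A/J 7 and C57BL/6J 7, stood above the other 13, which lay between 8.03 and 8.81. Of the other lists, the 4 red blood cell markers separated the strains, with means of 11.32 to 11.80 in A/J and 10.69 to 10.94 in C57BL/6J, as did the 4 bile duct markers, with 7.88 to 7.94 in A/J and 7.98 to 8.08 in C57BL/6J, 2 of them below the array median in all samples. Macrophage markers (8 genes), stellate cell markers (8 genes), endothelial markers (8 genes) and lymphocyte markers (6 genes) overlapped between strains. The part of these cells in the results below was not tested.

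Sec24d carried by far the widest strain difference of the coat. It encodes a SEC24 paralogue whose loss is lethal to mouse embryos and whose mutation in people causes a brittle bone syndrome. The gene lies on chromosome 3 at 123264801 to 123365641 of GRCm38, and 1 probe reads it. The Sec24d probe had a lowest value of 7.84, a median of 7.87 and a highest value of 8.03 in A/J, against 9.50, 9.78 and 10.03 in C57BL/6J. The 8 A/J samples lay within a narrow band around the array median and the 8 C57BL/6J samples lay well above it, with a distance of 1.47 between the highest A/J and the lowest C57BL/6J sample. The means were 7.90 ± 0.0688 in A/J and 9.78 ± 0.194 in C57BL/6J (SD, n = 8 each), a measured difference of -1.88 (SE 0.0700). In 7 of 8 A/J samples the signal was under 8.00, the lowest mean among the kept probes, so that the probe passed the filter on dim probes through C57BL/6J. With such values raised to that floor, the Sec24d signal was at least 3.42-fold lower in A/J. The gene rests on this probe alone, and whether the A/J sequence differs under it was not tested.

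The A/J mean of Sec24d was itself under the array median of 8.01. Without the 3 samples with pancreas genes the difference was -1.86 (SE 0.0815). In C57BL/6J, the Sec24d values of samples 1 to 4 ran 9.50 to 9.77 and those of samples 5 to 8 ran 9.80 to 10.03. The strain difference was accordingly -1.69 among samples 1 to 4 and -2.08 among samples 5 to 8. The strains did not overlap in either set.

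Of the other 3 SEC24 paralogues, Sec24b and Sec24c showed nothing of this size, and Sec24a was too dim in both strains to show it. Sec24a lies on chromosome 11 at 51692263 to 51757161. Its probe had 7.81, 7.85 and 7.94 in A/J (lowest, median and highest) and 7.80, 7.83 and 7.90 in C57BL/6J, all below the array median. Sec24b, whose product is needed in mice for closure of the neural tube, lies on the same chromosome as Sec24d, at 129982759 to 130061599 of chromosome 3. It had 9.33, 9.39 and 9.56 in A/J and 9.23, 9.47 and 9.56 in C57BL/6J. The strains covered nearly the same range, and the difference was -0.03 (SE 0.0518). Sec24c, the paralogue closest to Sec24d in sequence, lies at 20674285 to 20694852 of chromosome 14. It had 9.46, 10.24 and 10.40 in A/J and 10.09, 10.44 and 10.71 in C57BL/6J. A/J tended lower but the ranges overlapped, with means of 10.13 ± 0.294 in A/J and 10.41 ± 0.202 in C57BL/6J (SD, n = 8 each) and a difference of -0.28 (SE 0.117).

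**Figure D1:**
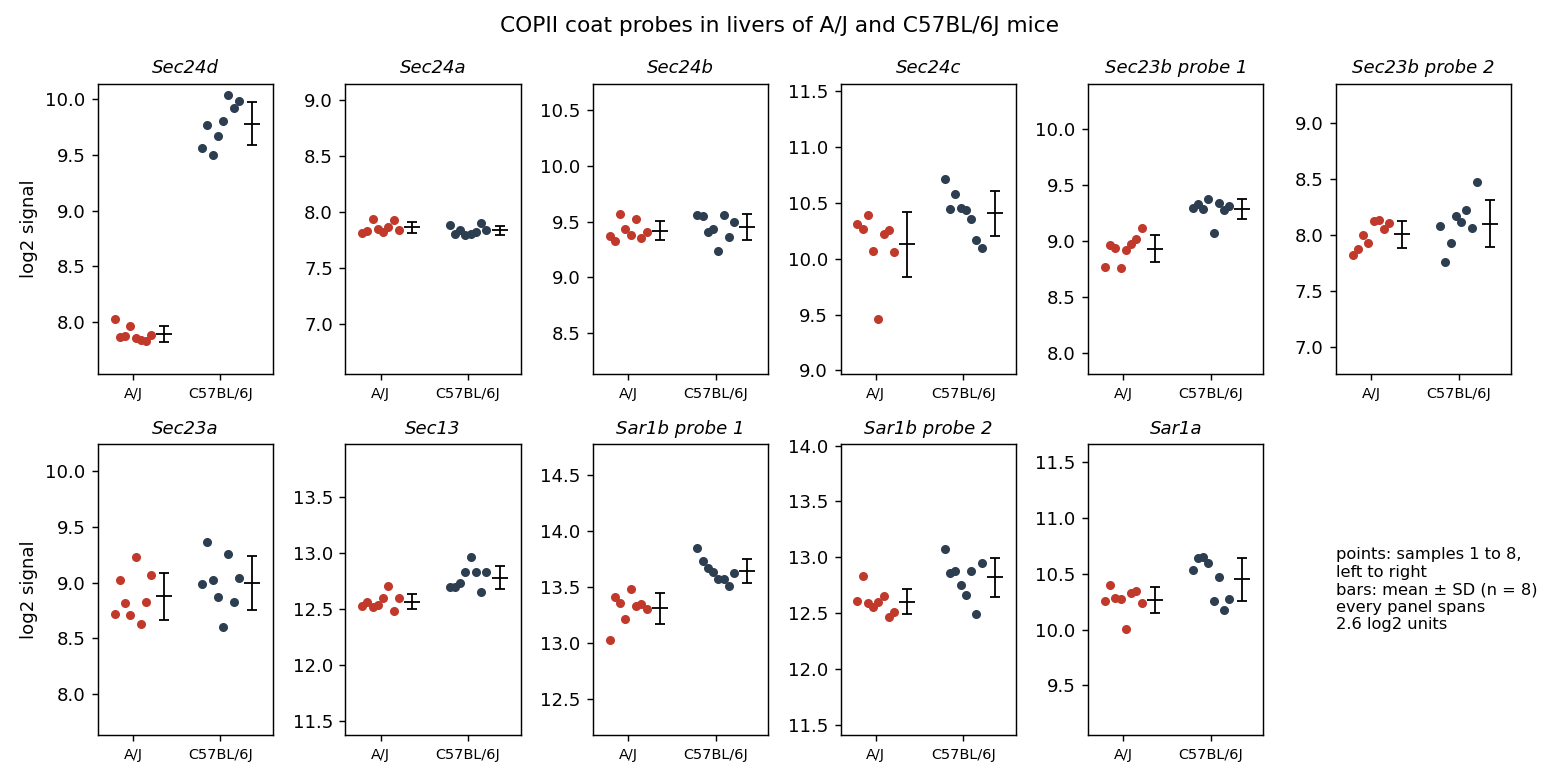
Log2 signal (y axis) of each of the 11 COPII coat probes in 8 A/J samples (red) and 8 C57BL/6J samples (dark blue), with the mean and SD of each strain beside the points; every panel spans the same number of log2 units, and the zero of the scale is not shown. Sec24d lies between 7.84 and 8.03 in A/J and between 9.50 and 10.03 in C57BL/6J, whereas the points of Sec24a, Sec24b and Sec24c overlap between strains. The Sec24a points all lie below the array median.

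Levels of different probes cannot be set against each other, but the gap between 2 probes on the same array can be compared between strains. The gap of Sec24d to the mean of Sec24a, Sec24b and Sec24c ran from -1.42 to -1.03 in A/J, with a median of -1.25, and from 0.17 to 0.84 in C57BL/6J, with a median of 0.57. No A/J sample came near a C57BL/6J sample, and the gap differed by -1.79 between strains (SE 0.102). Taken singly, the gap differed by -1.91 against Sec24a (SE 0.0785), by -1.85 against Sec24b (SE 0.0877) and by -1.60 against Sec24c (SE 0.169), without overlap in any of the 3. With the dim Sec24a left out of the mean the gap differed by -1.73 (SE 0.119). The lower Sec24d signal of A/J was therefore not shared in equal measure by Sec24b or Sec24c, whose differences were -0.03 and -0.28. The Sec24a probe was too dim in both strains to show a lower value in A/J, so its gap mainly restates Sec24d.

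**Figure D2:**
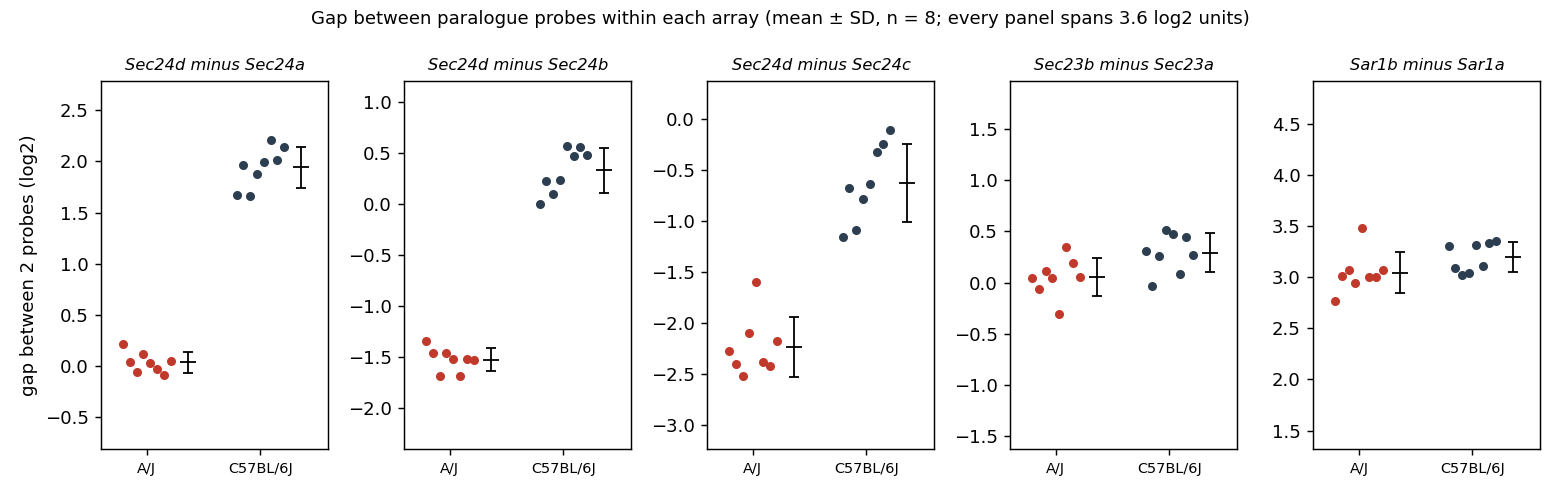
Gap between 2 paralogue probes within each array (y axis, log2) in 8 A/J samples (red) and 8 C57BL/6J samples (dark blue), with mean and SD; panels span equal numbers of log2 units. The 3 gaps of Sec24d separate the strains, while the gaps of Sec23b to Sec23a and of Sar1b to Sar1a overlap.

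SEC23 has 2 paralogues. Sec23b, whose human counterpart is mutated in a congenital dyserythropoietic anaemia, lies at 144556229 to 144590753 of chromosome 2. Its brighter probe had 8.76, 8.95 and 9.12 in A/J (lowest, median and highest) and 9.08, 9.31 and 9.38 in C57BL/6J. Of the A/J samples, 7 were below every C57BL/6J sample. The means were 8.93 ± 0.122 in A/J and 9.29 ± 0.0918 in C57BL/6J (SD, n = 8 each), a difference of -0.35 (SE 0.0545) or 1.28-fold lower in A/J. Among samples 1 to 4 it was -0.47 and among samples 5 to 8 it was -0.24. The second Sec23b probe, close to the array median, had 7.82, 8.03 and 8.14 in A/J and 7.75, 8.10 and 8.48 in C57BL/6J. Here the C57BL/6J samples reached both below and above the A/J samples, and the difference was -0.10 (SE 0.0816), so the probes of this gene differed in the size of what they showed.

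Sec23a, mutated in people with a craniofacial and skeletal syndrome, lies at 58958384 to 59012017 of chromosome 12. It had 8.63, 8.83 and 9.23 in A/J and 8.60, 9.0045 and 9.36 in C57BL/6J, 2 wide and nearly equal ranges. The difference was -0.12 (SE 0.105). The gap of Sec23b to Sec23a ran from -0.31 to 0.35 in A/J and from -0.03 to 0.51 in C57BL/6J, with medians of 0.05 in A/J and 0.29 in C57BL/6J. The strains overlapped between -0.03 and 0.35, and the gap differed by -0.24 (SE 0.0956).

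Of the outer cage, only Sec13 could be read. SEC13 is also a part of the nuclear pore, and its gene lies at 113728052 to 113740681 of chromosome 6. The Sec13 probe, with first 30 bases cacctgccttactgggatcccatgtgttta, had 12.49, 12.55 and 12.71 in A/J and 12.65, 12.78 and 12.97 in C57BL/6J. As with Sec23b, 7 of the 8 A/J samples lay below every C57BL/6J sample. The difference was -0.21 (SE 0.0465).

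SAR1 has 2 paralogues as well. Sar1b, whose human counterpart is mutated in chylomicron retention disease, a failure of lipoprotein export from the gut, lies at 51763663 to 51791953 of chromosome 11. Its brighter probe had 13.02, 13.34 and 13.48 in A/J and 13.51, 13.63 and 13.85 in C57BL/6J. The strains did not overlap, by a margin of 0.025. The means were 13.31 ± 0.139 in A/J and 13.65 ± 0.106 in C57BL/6J (SD, n = 8 each), a difference of -0.34 (SE 0.0609) or 1.26-fold lower in A/J. Among samples 1 to 4 the difference was -0.47 and among samples 5 to 8 it was -0.20. The second Sar1b probe had 12.46, 12.60 and 12.84 in A/J and 12.50, 12.87 and 13.07 in C57BL/6J, overlapping, with a difference of -0.22 (SE 0.0714). Both probes of Sar1b were thus lower in A/J on average.

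Sar1a lies at 61680285 to 61693297 of chromosome 10. It had 10.003, 10.28 and 10.40 in A/J and 10.17, 10.50 and 10.65 in C57BL/6J. The ranges overlapped, and the difference was -0.18 (SE 0.0755). The gap of Sar1b to Sar1a ran from 2.77 to 3.48 in A/J and from 3.02 to 3.36 in C57BL/6J, with medians of 3.01 in A/J and 3.21 in C57BL/6J. It overlapped between strains and differed by -0.15 (SE 0.0875).

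Over the whole coat, all 10 kept probes had a difference below 0, against 45.4% of all kept probes. Only Sec24d was called, where 4.86% of all kept probes were called in either direction and 2.96% as lower in A/J. By the adjusted P alone 5 coat probes of 4 genes passed, all lower in A/J, namely Sec24d, Sec23b probe 1, Sec13 and both probes of Sar1b, where 26.5% of all kept probes passed and 11.9% passed as lower. Strains were without overlap for 2 of 10 probes, Sec24d and Sar1b probe 1, where 4.4% of all kept probes were lower in every A/J sample. The median difference was -0.22 over the 10 coat probes, -0.21 over the 9 other than Sec24d, and 0.01 over all kept probes. Because the genes were chosen from this same contrast, nothing is read from these counts.

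**Figure D3:**
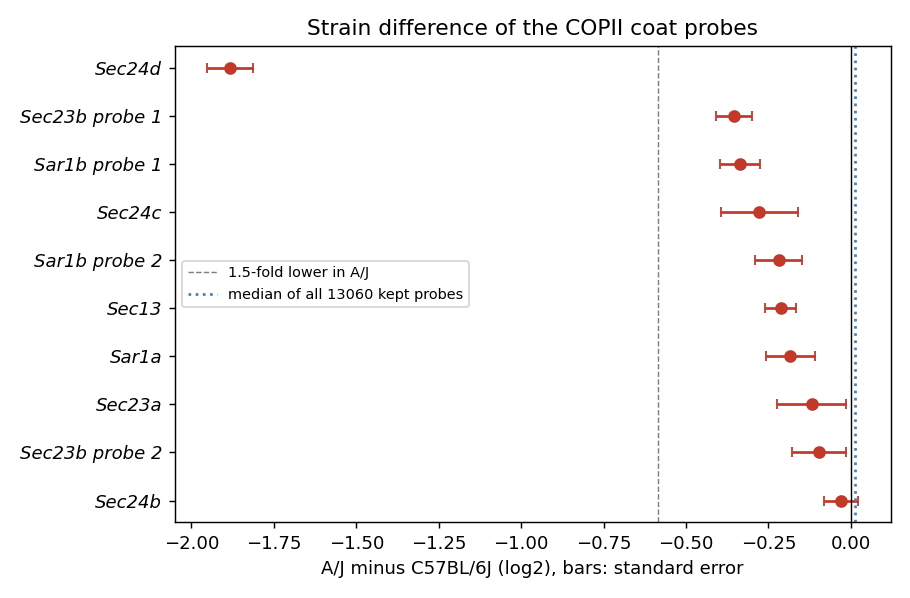
Difference A/J minus C57BL/6J (x axis, log2) of the 10 kept COPII coat probes, with standard errors, 8 samples per strain; the dashed line marks 1.5-fold lower in A/J and the dotted line the median of all kept probes, 0.01. Sec24d stands at -1.88 and the other probes lie between -0.35 and -0.03.

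The coat probes also varied within strains. In C57BL/6J, 4 of the 11 coat probes split without overlap between samples 1 to 4 and samples 5 to 8, and in A/J 1 did. The share of all probes that split this way was not computed, and the hepatocyte marker mean split likewise in both strains. The count is therefore not read as a trait of the coat. Sec24d was the one C57BL/6J probe of the 4 that was lower in samples 1 to 4. Sec24c was higher there, with 10.45 to 10.71 in samples 1 to 4 and 10.09 to 10.43 in samples 5 to 8, as was Sar1a, with 10.54 to 10.65 and then 10.17 to 10.47. Sar1b probe 1 had 13.63 to 13.85 in C57BL/6J samples 1 to 4, just above the 13.51 to 13.63 of samples 5 to 8. As a description over 16 samples that share this split, deviations from the strain means were compared by Pearson r. Over all pairs of the 10 kept coat probes r ran from -0.60, between Sar1b probe 1 and Sec24d, to 0.73, between Sar1a and Sec24c. It was 0.54 between Sec23b probe 1 and Sec23a and 0.50 between the 2 probes of Sar1b. In A/J, Sec24d was dim and sample 5 stood apart for both Sar1a and Sec24c.

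Among 9050 other genes, those whose deviations from the strain means were most like those of Sec24d over the 16 samples were Tpmt, with an r of 0.82, Zfp979 with 0.81, Ddo and Tor1aip2 with 0.79 each, and Zfp606 with 0.78. The most alike to Sec23b were Angel2, with an r of 0.76, and then Gtf3c6, Sirpb1a, Hdhd3 and Hacl1, with 0.66 each. These are the highest of a large search over few samples that share a split and are given as a description. For Zfp979, Ddo and Tor1aip2 the likeness to Sec24d lay in C57BL/6J, with an r of 0.89, 0.93 and 0.85 there. In A/J, where Sec24d was dim, their r was 0.12, 0.30 and -0.03. Tpmt and Zfp606 had an r of 0.54 and 0.82 in A/J and of 0.85 and 0.80 in C57BL/6J. The strain differences of the genes most like Sec24d ran both ways, with 3.14 for Tpmt, -0.37 for Zfp979, 0.04 for Ddo, -1.98 for Tor1aip2 and -0.04 for Zfp606.

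Beyond the coat itself, 4 lists of genes of the same route were examined, 68 tested genes in all, of which 3 were called, all lower in A/J, where 5.29% of 9051 genes were called in either direction. By limma's adjusted P alone 15 list genes were lower and 2 were higher in A/J, and 51 did not pass, where 28.1% of all genes passed, 12.6% lower and 15.5% higher. The median difference of the 68 genes was -0.07, against 0.01 over all tested genes. The lists were drawn up with earlier results of these data known, and some of their genes were named after their values were seen. The adjusted P values of list genes are therefore not those of genes picked beforehand.

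Of the factors that assemble the coat at ER exit sites, none of 11 tested genes was called, with 1 higher and 1 lower by the adjusted P alone and a median of 0.00. The widest difference was that of Sec16a, the scaffold on which COPII assembles. Sec16a had 10.76 ± 0.137 in A/J and 11.08 ± 0.228 in C57BL/6J (SD, n = 8 each), a difference of -0.32 (SE 0.0883) with an adjusted P of 0.0120 by limma. Mia3 (TANGO1), which loads bulky cargo such as collagen, was higher in A/J by 0.21 (adjusted P = 0.0111 by limma). The Mia3 signal was close to the array median, with 8.24 ± 0.107 in A/J and 8.04 ± 0.118 in C57BL/6J (SD, n = 8 each), and the strains overlapped. Preb (SEC12), the exchange factor that loads SAR1 with GTP, had a difference of -0.14 and did not pass (adjusted P = 0.404 by limma).

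Receptors that hand cargo to SEC24 had 1 of 18 tested genes called and 5 lower by the adjusted P alone, none higher, with a median of -0.11. The called gene was Lman2l, a lectin of the ERGIC-53 family that binds glycoproteins. Lman2l had 9.17 ± 0.119 in A/J and 9.84 ± 0.0967 in C57BL/6J (SD, n = 8 each) without overlap, a difference of -0.67 (SE 0.0547) with an adjusted P of 3.77e-08 by limma, and its second probe had a difference of -0.35 (adjusted P = 0.00169 by limma). Lman1 (ERGIC-53 itself, which exports clotting factors) and Lman2 (VIP36) were lower in A/J by less, with differences of -0.45 (adjusted P = 0.00207 by limma) and -0.48 (adjusted P = 0.00032 by limma). Their partner or companion receptors Mcfd2 and Surf4 did not pass, with differences of 0.15 and -0.15.

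The COPI coat, which returns escaped proteins and receptors to the ER, had 1 of 14 tested genes called and 4 lower by the adjusted P alone, with a median of -0.09. The called gene was Copz2, one of 2 paralogues of the zeta subunit. Copz2 had 10.59 ± 0.15 in A/J and 11.32 ± 0.294 in C57BL/6J (SD, n = 8 each) without overlap, a difference of -0.73 (SE 0.108) with an adjusted P of 5.17e-05 by limma. Its other 3 kept probes had differences of -0.84, -0.49 and -0.05. Copg1 and Copa, subunits of the same coat, were lower in A/J by 0.58 (adjusted P = 1.21e-06 by limma) and 0.56 (adjusted P = 3.59e-05 by limma), below the fold threshold. The other 3 kept probes of Copg1, dimmer than the first, had differences of 0.05, 0.02 and -0.03 and did not pass.

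Tethering and fusion factors of ER to Golgi transport had 1 of 25 tested genes called, 5 lower and 1 higher by the adjusted P alone, with a median of -0.04. The called gene was Sec22c, a relative of the fusion SNARE Sec22b. Sec22c had 8.54 ± 0.0677 in A/J and 9.17 ± 0.13 in C57BL/6J (SD, n = 8 each) without overlap, a difference of -0.63 (SE 0.0528) with an adjusted P of 5.88e-08 by limma, and its second probe had -0.48 (adjusted P = 0.000216 by limma). The SNAREs Bet1 and Sec22b and the tether Uso1 (p115) were lower in A/J by 0.56, 0.50 and 0.50. Yif1b, a membrane protein of the early secretory pathway, was the one gene higher in A/J, by 0.53 (adjusted P = 0.000753 by limma).

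**Figure D4:**
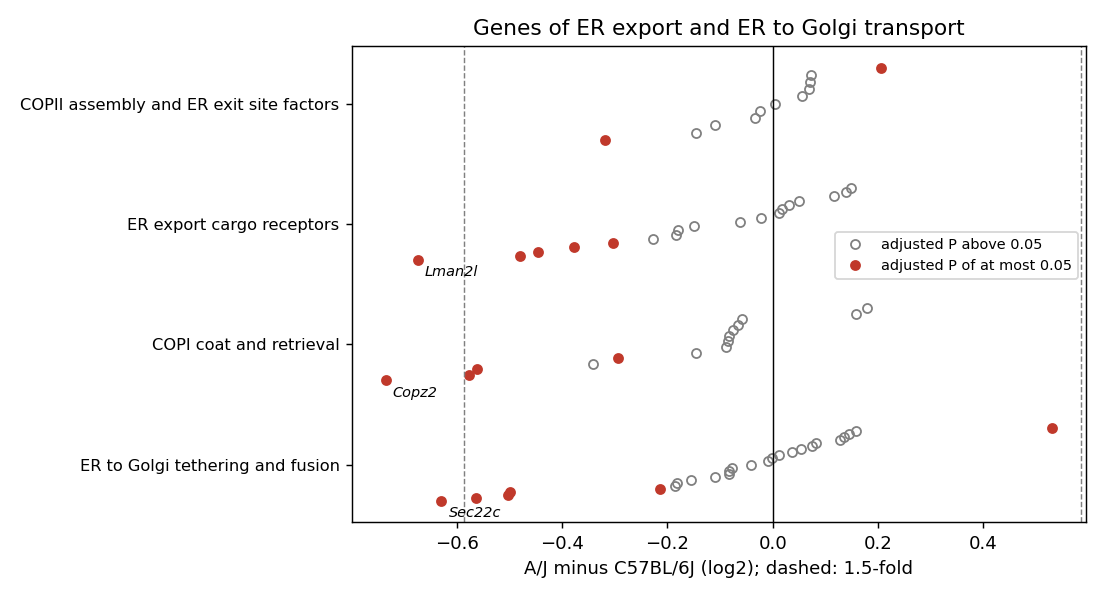
Difference A/J minus C57BL/6J (x axis, log2) of 68 genes of 4 ER export and ER to Golgi lists, 1 point per gene, 8 samples per strain; filled points passed the adjusted P of 0.05 in limma and dashed lines mark 1.5-fold either way. The 3 named genes, Lman2l, Copz2 and Sec22c, lie past the dashed line on the side lower in A/J.

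Xbp1 on the same arrays had 13.27, 13.37 and 13.54 in A/J (lowest, median and highest) and 13.23, 13.57 and 14.04 in C57BL/6J. The A/J samples fell inside the wider C57BL/6J range, and the difference of -0.21 (SE 0.0995) did not pass (adjusted P = 0.143 by limma). Whether this probe separates the spliced from the unspliced transcript was not tested.

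By position, the 9 coat genes with a probe are spread over 7 chromosomes, and 2 of them, Sec24a and Sar1b, lie next to each other on chromosome 11, with 6502 bases between the end of one and the start of the other, inside the chromosome 11 interval that the study examined for both of its traits. Around Sec24d, 6 other tested genes lie within 1 Mb. Among them Mettl14, a subunit of the enzyme that adds N6-methyladenosine to RNA, begins 2653 bases after the end of Sec24d, at 123368295 to 123385990 of chromosome 3. Mettl14 had 7.82, 7.86 and 7.92 in A/J and 8.57, 8.74 and 8.83 in C57BL/6J. All A/J samples lay below the array median and all C57BL/6J samples above it. The measured difference was -0.85 (SE 0.0381). All 8 A/J samples were under the lowest mean among the kept probes, so that this probe too passed the filter through C57BL/6J. With the A/J values raised to that floor, its signal was at least 1.64-fold lower in A/J. Whether the A/J sequence differs under this probe was not tested. The gene was singled out after its values were seen, and the difference is given as a description. A second Mettl14 probe, dimmer than the kept ones, had 7.82 ± 0.0729 in A/J and 7.84 ± 0.0282 in C57BL/6J (SD, n = 8 each). The other 5 neighbours, Gclm, Fnbp1l, Bcar3, Usp53 and Pde5a, had differences between -0.09 and 0.23 and none was called.

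Promoter windows of 300 bases around the start sites were read from RefSeq (GRCm38.p6), 12 of them belonging to the coat genes, Sec31a included, and were searched on both strands. The letters TGACGTGG, which contain the core bound by XBP1 and ATF6 in the unfolded protein response, stood in 2 of the 12, those of Sec24d and Sec23a, and in 0.676% of all 32851 promoters. The shorter ACGTG, which lies within those letters, stood in 9 of the 12 and in 19.6% of all. The longer ER stress response element, CCAAT and CCACG separated by 9 bases, stood in none of the 12 and in 0.119% of all. The pair with TGACGTGG is shown because one gene of it had the widest strain difference of the coat and the other overlapped between strains. Capitals mark the motif. In Sec24d it begins 26 bases before the start site of the window (chr3:123267396-123267495, plus strand). This start site lies inside the gene span given above, past its first base. In Sec23a the motif lies just after the start site (chr12:59011993-59012022, minus strand).
Sec24d: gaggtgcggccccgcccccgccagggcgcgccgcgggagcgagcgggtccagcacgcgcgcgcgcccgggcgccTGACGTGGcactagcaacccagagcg
Sec23a: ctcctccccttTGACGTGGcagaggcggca
A match of letters is a description of the reference sequence and not evidence of binding, and the sequence of A/J at these windows was not analysed here.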

How the data were processed

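Liver RNA was read on 16 Illumina Mouse Ref 8 arrays, and all 16 deposited columns, log2 values of 25697 probes, were used. Per the labels and methods, the authors exported signals from BeadStudio and applied quantile normalization in lumi, with no version, background correction or transform stated in the sources used here. Every array has nearly the same sorted values (within 0.00086), which removes differences in total signal. The number of arrays limits the precision. Another deposited table pairs probes with identifiers that encode their sequence, which was decoded.

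The platform annotation names 1 gene for 23978 probes and no gene for 1719. By Entrez ID 23962 were placed on RefSeq (GRCm38), and 9 by accession. Probes of highest mean stood in for the detection filter of the methods, in the same number.

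Strains were compared in limma 3.58.1 (R 4.3.3, data.table, version 1.17.8) by lmFit and eBayes, with 14 residual and 3.11 prior degrees of freedom and Benjamini-Hochberg adjustment over all kept probes. The script was tested on simulated data. Annotation and figures used Python 3.11.15, pandas 2.3.3 and matplotlib 3.10.9. Pathway genes were represented by their kept probe of highest mean.

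The coat genes, gene lists and marker lists were chosen with earlier results of these data known. Named were all coat probes, up to 4 called genes per list with the widest difference (the widest where none was called), the 5 genes most like Sec24d and Sec23b, and Xbp1. Mettl14 with its neighbours, and further list genes (Mia3, Preb, Lman1, Lman2, Mcfd2, Surf4, Copg1, Copa, Bet1, Sec22b, Uso1, Yif1b), were named after their values were seen. Bounds on the Sec24d and Mettl14 folds raise values to the lowest mean among the kept probes, since no detection P value was used. Alternatives changed the filter, scaling, variance model, array weights, thresholds, probe choice and samples.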

Additional observations from a re-analysis of the deposited data

Results flagged for a closer look

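Single samples stood apart from the other 7 of their strain in 4 of 34 sets of 8 values examined, a distance that chance alone gives in about 5% of sets. The gap to the nearest sample, divided by the range of the strain, exceeded Dixon's critical value for 8 values in each.

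In A/J sample 5, Sec24c was at 9.46, where the nearest A/J sample was at 10.06 (gap over range 0.638), and Sar1a was at 10.003, where the nearest was at 10.24 (0.593). In the same sample the gap of Sar1b to Sar1a was 3.48, the nearest being 3.07 (0.570), a value that contains the Sar1a value. In C57BL/6J sample 5, Sec23b probe 1 was at 9.08 (9.075), below the nearest C57BL/6J sample at 9.27 (0.658).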

How the results depend on the processing

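The sign of the difference held under every alternative run for 8 of the 10 coat probes. Sec23a and Sec24b, both near 0, exceeded 0 in 1 of 27 settings each, at 0.0066 and 0.0031. Changes of filter, variance model or replicate block cannot move a fitted difference, and rescaling arrays of nearly equal distribution hardly can. Stability under those settings was thus fixed in advance. Of 269 values of single coat probes under alternatives, those settings included, 263 moved by less than the spread between samples. The other 6 moved by more, all among samples 1 to 4 or samples 5 to 8, and no called value changed sign. In these 2 sets of samples, chosen after seeing the data, the Sec24d gap was -1.58 (samples 1 to 4) and -1.997 (samples 5 to 8), the list genes called were 7 and 5 against 3 in all samples, and the coat probes past the adjusted P were 6 and 3, against 5. Without the fold threshold 5 coat probes and 17 list genes passed, and at a fold of at least 2 no list gene did. With the probe of smallest P per gene in place of the brightest, 23 list genes passed the adjusted P and 4 were called.

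Leaving out 1 sample at a time, the Sec24d gap ran from -1.84 to -1.75, the Sec23b gap from -0.28 to -0.18 and the Sar1b gap from -0.22 to -0.11. Called coat probes stayed at 1, coat probes past the adjusted P ran from 4 to 6, list genes called from 3 to 5 and list genes past the adjusted P from 17 to 19. The 5 list genes came without C57BL/6J replicate 5.

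Strains share sample numbers, but these were not taken as pairs in the main fit. The correlation of deviations of same-numbered samples ran from -0.015 to 0.539, with 6 of 8 above 0.1. Of the 16 samples 5 matched their own number best, so a likeness by number is not excluded. With the replicate block, 6 coat probes and 21 list genes passed the adjusted P and 1 coat probe and 3 list genes were called. Without the 3 samples with pancreas genes 6 coat probes passed and 1 was called. The median difference of all probes was 0.0137 with median centring and 0.0134 with a second quantile normalization, against 0.0137 as reported. The arrays were already quantile normalized, so these values could hardly differ. Signals near the array median, as of Sec24a, Sec23b probe 2 and Sec24d in A/J, limit what a difference can show.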
